A study of Drosophila melanogaster with 4 samples.

Results

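Chromosome 4 is the smallest autosome of Drosophila melanogaster. The report follows 50 of its genes, out of 9931 genes counted in larval salivary glands, in animals without functional JIL-1 and in wild type. Of 55 gene names chosen for lying on this chromosome, with earlier results of these data known, 51 had a row in the count table. A reference annotation (BDGP6.54, matched by gene identifier) placed 50 of these rows on chromosome 4 and Arc-p34 on 2L, so Arc-p34 is given apart. RhoGAP102A, Sox102F and CG32006 had no row, and Zip102B is the newer symbol of another chosen gene, CG2177. The table holds 28 further genes of chromosome 4, which were not chosen and serve for comparison. RNA-seq was made of total RNA from the salivary glands of larvae in the third instar, kept at 25 °C, with 2 libraries of JIL-1 null larvae (JIL-1-/-, allele Z2) and 2 libraries of wild-type larvae. The labels name no strain for the wild type and no further allele or transgene.

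Most of chromosome 4 is packed as heterochromatin, yet many of its genes are active. In Drosophila its chromatin carries methylated histone H3, heterochromatin protein 1 and a protein of its own, Pof, which binds the bodies of its active genes. JIL-1 is a chromosomal kinase that phosphorylates histone H3 in the open interbands of polytene chromosomes, and in JIL-1 mutants of this species heterochromatin marks are known to spread along the chromosome arms. The comparison of both genotypes asks how transcripts of a chromosome that is already heterochromatic differ when JIL-1 is lost.

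The deposited counts summed to between 8071769 and 11369094 in JIL-1 null libraries and to between 6222322 and 8496047 in wild-type libraries. JIL-1 itself, on another chromosome, had 449 and 660 counts in JIL-1 null and 597 and 608 counts in wild type, a log2 fold change of -0.61 ± 0.12 (SE; adjusted p = 0.0147, quasi-likelihood test of edgeR). That call was lost when the first JIL-1 null library was left out (-0.60, adjusted p = 0.108) and when the second was (-0.64, adjusted p = 0.121). Counts per gene do not show which part of JIL-1 the remaining reads came from, so this is a limited check of the label. Genes that define the salivary gland, glue genes above all, took 37.5% and 36.6% of the counts in JIL-1 null and 35.4% and 37.7% in wild type. Of these 12 genes edgeR called 2 higher and 2 lower, beside 13.5% higher and 17.2% lower of all genes tested. PH4alphaSG1 and PH4alphaSG2 rose, with log2 fold changes of 4.14 and 1.53, and Sgs1 and sage fell, with -1.25 and -0.54. A chi-square test of the counts found the libraries within either genotype to differ beyond counting error. The labels do not say whether they come from separate animals, so the spread behind each p-value may be technical. Any difference in strain background falls together with the genotype and cannot be told apart from it.

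More of the chosen chromosome 4 genes were lower than higher in JIL-1 null glands. The filter on low counts kept 45 of the 50, of which 14 fell and 4 rose (adjusted p under 0.05 over all 7958 genes tested, by edgeR). These are 31.1% lower and 8.89% higher, beside 17.2% lower and 13.5% higher among all genes tested, of which 30.7% were called in either direction. Because the members were chosen with earlier results of these data known, the difference in shares is a description only. The 4 that rose were CG11093, CR43957, CG31997 and ci. The calcium-responsive kinase gene CaMKI, the transcription factor genes zfh2, Mitf and Pur-alpha and the Mediator subunit gene MED26 were among those that fell. By at least 2-fold, 5 fell (CG1732, CG1909, mav, zfh2 and CaMKI) and 2 rose (CG11093 and CR43957), where 8.97% of all genes tested fell and 5.39% rose by that much. Most members moved little, since 30 of 45 were within 1.5-fold in either direction, as were 65.1% of all genes tested.

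The median log2 fold change of the 45 genes was -0.20, against 0.03 over all genes tested. Here and below a log2 fold change is JIL-1 null over wild type and its error is a standard error. Values below 0 were seen for 33 of the 45, or 73.3%, and for 47.4% of all genes tested. The JIL-1 null libraries lay below both wild-type libraries for 24 members and above both for 7, which is 53.3% and 15.6%, beside 33.1% and 37.2% of all genes. The medians of the 5 large arms, X, 2L, 2R, 3L and 3R, ran from 0.02 to 0.05, and between 13.4% and 18.7% of the genes on an arm were called lower. Scaling by the upper quartile put the median of all genes at 0.17 and the higher share of all called genes at 59.4%, against 44.0% with TMM. The median of the chosen genes was then -0.06, with 24 of 45 below 0, 11 called lower and 4 higher. The difference between the medians of the chosen genes and of all genes was -0.23, which a change of scaling leaves nearly as it is by construction. It was -0.16 without JIL-1 null library 1 and -0.19 with the minimum mean set to 5 CPM. Without JIL-1 null library 1 there were 6 lower and 3 higher calls among the chosen genes, and without JIL-1 null library 2 there were 2 and 2, where all genes dropped to 629 lower and 282 higher calls and to 524 and 195.

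**Figure D1:**
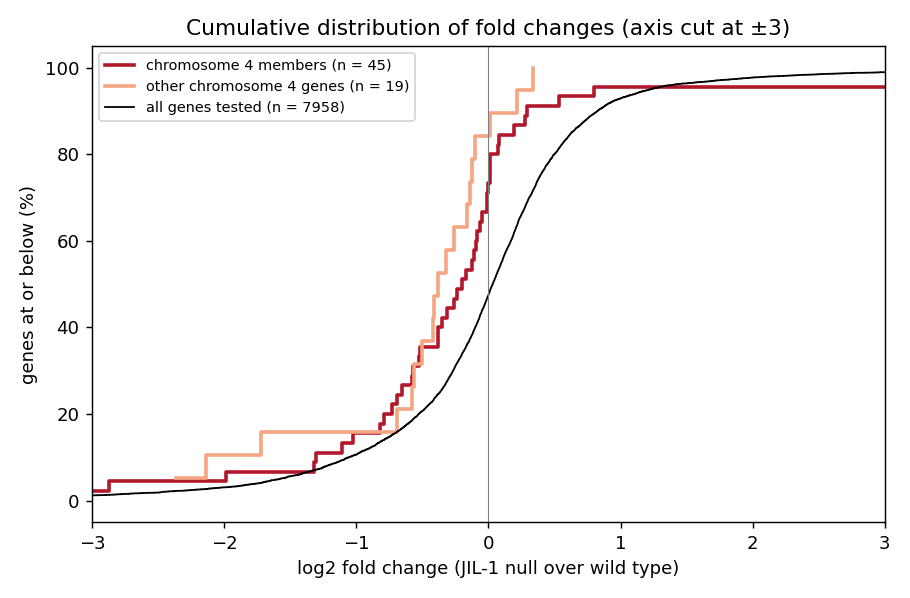
Cumulative share of genes (y axis, %) at or below a log2 fold change of JIL-1 null over wild type (x axis, cut at 3 on either side), for the 45 tested members, the 19 other tested genes of chromosome 4 and all 7958 genes tested. Both chromosome 4 curves run to the left of the curve of all genes, with medians of -0.20 and -0.38 against 0.03.

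Summed over the 50 genes, the chosen part of chromosome 4 took 0.324% and 0.360% of the counts in JIL-1 null and 0.423% and 0.396% in wild type. Without Rfabg, the most abundant of them, the shares were 0.223% and 0.230% in JIL-1 null and 0.272% and 0.257% in wild type. Both JIL-1 null libraries were thus below both wild-type libraries. In bulk tissue, fewer cells of a type and less RNA per cell cannot be told apart. Summed markers of some other tissues were also lower in JIL-1 null. The muscle sum was not, with 343 and 297 CPM in JIL-1 null and 338 and 282 CPM in wild type. Its largest parts were Mef2 and sls, at means of 143 and 99.8 CPM in JIL-1 null and 130 and 77.9 CPM in wild type. The 10 muscle markers had a median log2 fold change of -0.55, with 7 below 0. EdgeR called 2 of the 10 lower and 1 higher, beside 17.2% lower and 13.5% higher of all genes tested. The 8 haemocyte markers summed to 80.7 and 78.2 CPM in JIL-1 null and 125 and 127 CPM in wild type, and of the 4 with enough counts to test 3 fell (srp, Hml and crq). The 6 fat body markers took 3.84% and 3.98% of the counts in JIL-1 null and 5.84% and 6.30% in wild type. Of these, 3 fell and 1 rose: Lsp1gamma, with means of 4335 CPM in JIL-1 null and 7.48 CPM in wild type. The 5 imaginal markers with a row summed to 61.9 and 46.7 CPM in JIL-1 null and 63.6 and 63.3 CPM in wild type, and of the 4 tested 0 were called. The part of these tissues in the fall of the chromosome 4 genes was not tested.

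In the 28 chromosome 4 genes that were not chosen, lower calls also outnumbered higher ones. Beside 17.2% lower and 13.5% higher of all genes tested, 9 of 19 tested by edgeR fell (47.4%) and 0 rose. Their median log2 fold change was -0.38. At an unadjusted p under 0.05, 1 was higher, the synaptic vesicle gene unc-13, at 0.34 ± 0.11 (adjusted p = 0.0663, and 0.0358 without wild type library 2). The number that fell depends on the libraries: it was 3 without wild type library 2, and 1 without either JIL-1 null library. DESeq2 called 5 lower and 0 higher, and limma-voom 9 and 0. Left out of the choice on purpose were pho, which fell (-2.36 ± 0.25, adjusted p = 0.00169 by edgeR), and RpS3A and ATPsyn-beta, which did not pass. Summed, the 28 took 0.4024% and 0.4165% of the counts in JIL-1 null and 0.4136% and 0.3934% in wild type. These shares overlapped between genotypes. Scaled by TMM, the sums were 4015 and 4000 CPM in JIL-1 null and 4028 and 4230 CPM in wild type, without overlap. RpS3A alone had 2573 and 2478 CPM in JIL-1 null and 2412 and 2593 CPM in wild type. The pooled count of all 78 chromosome 4 genes in the table was 0.727% and 0.777% of JIL-1 null libraries and 0.837% and 0.789% of wild-type libraries.

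Levels of different genes can be compared only per length, for which the authors' RPKM (1 pooled value per genotype) were used. The 50 genes had a median of 2.82 RPKM in JIL-1 null and 2.93 RPKM in wild type, beside 3.25 RPKM in JIL-1 null and 3.19 RPKM in wild type for all genes in the table. Levels ran from 0.0141 to 112 RPKM in JIL-1 null and from 0.00633 to 140 RPKM in wild type. At least 10 RPKM was reached by 7 of the 50 in JIL-1 null and by 10 in wild type. Rfabg, which encodes the main lipid-carrying lipoprotein of the larval blood and is known as a fat body gene, stood far above the rest. It was followed by CG31997, CG1970 (now named ND-49, a subunit of respiratory complex I), Rad23 (a ubiquitin shuttle and DNA repair factor) and bip2 (now named Taf3, a subunit of the general transcription factor TFIID). Per length CG31997 had 36.2 RPKM in JIL-1 null and 19.8 RPKM in wild type, and CG1970 had 27.5 RPKM in JIL-1 null and 26.0 RPKM in wild type. Rad23 had 20.7 RPKM in JIL-1 null and 23.4 RPKM in wild type, and bip2 had 12.3 RPKM in JIL-1 null and 18.4 RPKM in wild type. CG31997 thus stood above CG1970 and Rad23 in JIL-1 null and below both in wild type.

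Of the 64 chromosome 4 genes tested, CG11093 had the highest log2 fold change. It is now named fuss and encodes a transcriptional corepressor of the Ski/Sno family. It had 152 and 187 counts, or 18.8 and 15.8 CPM, in JIL-1 null libraries 1 and 2, against 5 and 6 counts, or 0.783 and 0.760 CPM, in wild-type libraries (CPM are counts scaled by library size and TMM factor). The wild-type libraries were close to 3 counts, the limit that a count of 0 allows, and the JIL-1 null libraries far above it. It had a log2 fold change of 4.46 ± 0.24 (adjusted p = 0.000284). The ratio of pooled counts was 22.1 with a 95% exact interval from 12.2 to 44.7 that covers counting error only. The call held under all 11 alternatives. In the annotation an exon of this gene overlaps those of the noncoding genes sphinx and CR44030 on the opposite strand, and no use of strand in the counting is given in the sources used here.

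CR43957, a noncoding antisense RNA gene, had 63 and 66 counts in JIL-1 null and 4 and 5 counts in wild type. That is 7.79 and 5.58 CPM in JIL-1 null against 0.626 and 0.633 CPM in wild type, with no overlap, a log2 fold change of 3.37 ± 0.37 (adjusted p = 0.00204). The ratio of pooled counts was 10.3 (95% exact interval 5.25 to 23.0), and the call held under all 10 alternatives that tested it. Its annotated exons overlap those of ci on the opposite strand, so reads of this pair cannot be told apart without strand. The gene ci encodes the transcription factor of the Hedgehog pathway. It had 23.9 and 23.9 CPM in JIL-1 null and 16.8 and 16.2 CPM in wild type, also without overlap. Its log2 fold change was 0.54 ± 0.14 (adjusted p = 0.0306). That call was lost with DESeq2 (0.51, adjusted p = 0.143), when wild type library 2 was left out (0.51, adjusted p = 0.0534) and when either JIL-1 null library was (0.55 and 0.51 without libraries 1 and 2 in turn, adjusted p = 0.150 and 0.200).

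CG31997, for which no role is given here, had 22.0 and 28.2 CPM in JIL-1 null and 13.9 and 14.9 CPM in wild type. All JIL-1 null values were above all wild-type values. Its log2 fold change of 0.80 ± 0.18 passed (adjusted p = 0.0198) but did not when JIL-1 null library 2 was left out (0.58, adjusted p = 0.160).

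**Figure D2:**
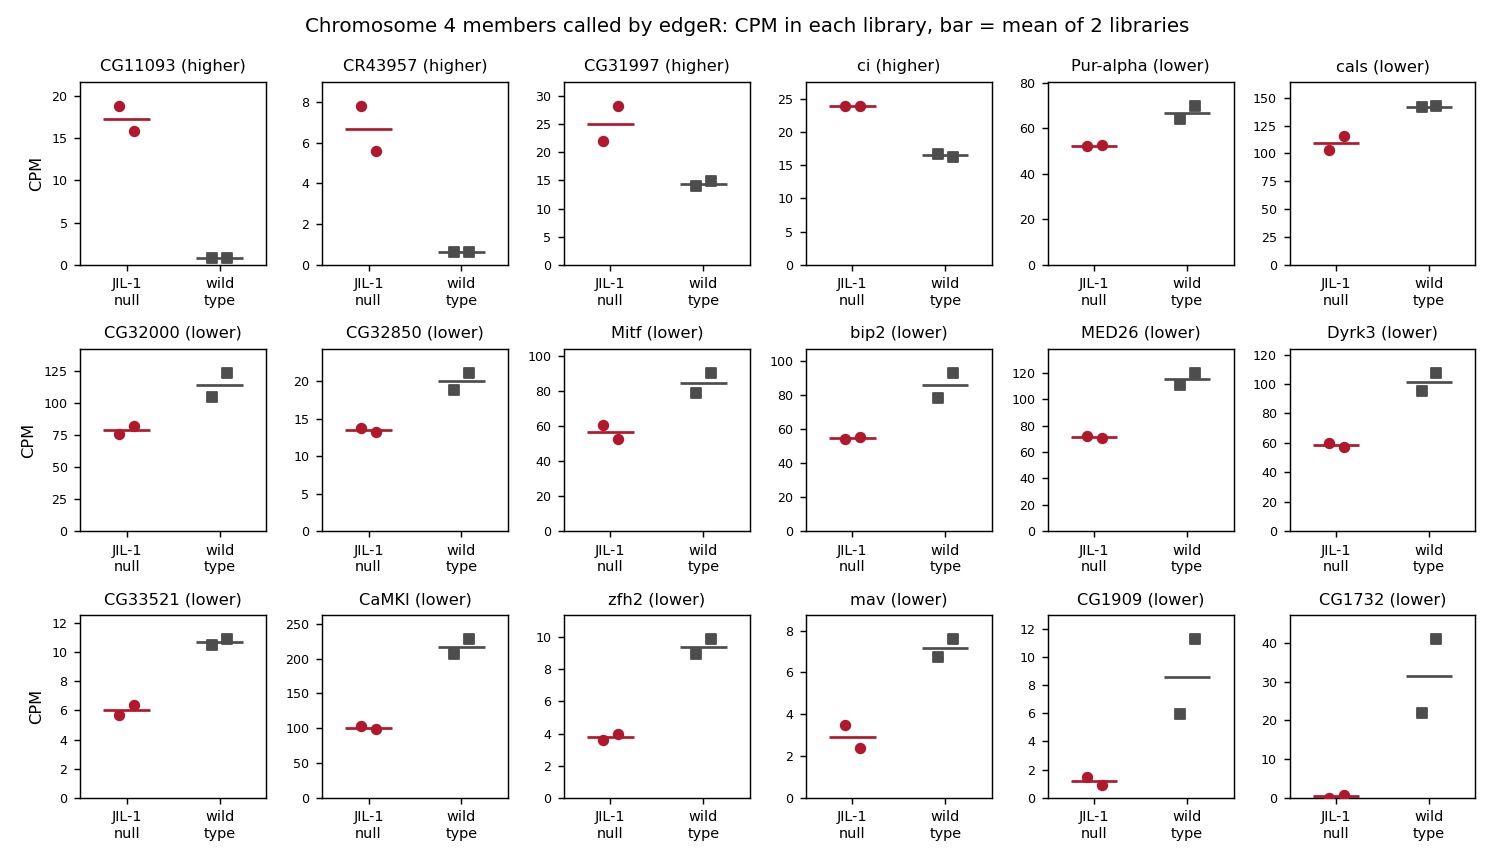
CPM (y axes, linear from 0, each with its own range) of the 18 called chromosome 4 members in the 2 JIL-1 null libraries (red circles) and the 2 wild-type libraries (grey squares), with the mean as a bar. The panels were picked by their call, which favours genes without overlap. The genotypes do not overlap in any panel, nor in 70.3% of all genes tested. CG11093 and CR43957 lie near 0 in wild type, and CG1732 lies near 0 in JIL-1 null.

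The signalling genes are given from ligands to receptors to kinases. A TGF-beta family ligand is encoded by mav, which had 3.46 and 2.37 CPM in JIL-1 null and 6.73 and 7.60 CPM in wild type. The log2 fold change was -1.32 ± 0.28 (adjusted p = 0.0168), with no overlap between genotypes. With wild type library 2 left out it was -1.22 (adjusted p = 0.0630), and with JIL-1 null library 2 left out -1.07 (adjusted p = 0.122). The related myo, which encodes myoglianin, did not pass, with 53.2 and 49.8 CPM in JIL-1 null and 56.8 and 53.2 CPM in wild type and a log2 fold change of -0.10 (95% interval -0.34 to 0.15). The third, Actbeta, had too few counts to be tested, with 6 and 4 in JIL-1 null and 1 and 3 in wild type.

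Of 11 other genes of activin and BMP signalling, all tested, edgeR, DESeq2 and limma-voom each called 1 lower and 0 higher (with an unadjusted p under 0.05 in edgeR, 1 was higher and 4 were lower). Upper quartile scaling called 1 higher and 1 lower. Among all genes tested, edgeR called 17.2% lower and 13.5% higher. The median of the list was -0.20, against 0.03 for all genes. The gene that fell was daw, which encodes another ligand of this family, at 27.0 CPM in JIL-1 null and 47.0 CPM in wild type (means of 2 libraries) and a log2 fold change of -0.80 ± 0.16 (adjusted p = 0.0130). Without JIL-1 null libraries 1 and 2 in turn its adjusted p was 0.0823 and 0.118. The receptor genes put, sax, tkv, wit and babo did not pass.

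Guidance ligands and receptors of chromosome 4 did not pass the test, and none of the 3 receptor genes was called by DESeq2 or limma-voom or had an unadjusted p under 0.05. Ephrin, the ligand gene of the pair, had 55.6 and 59.2 CPM in JIL-1 null and 57.3 and 62.5 CPM in wild type, and the receptor tyrosine kinase gene Eph had 49.2 and 50.3 CPM in JIL-1 null and 51.2 and 47.3 CPM in wild type. Their 95% intervals for the log2 fold change were -0.31 to 0.19 and -0.22 to 0.25, and libraries of both genotypes overlapped. For the semaphorin receptor gene plexA the libraries had 132 and 135 CPM in JIL-1 null and 168 and 133 CPM in wild type (log2 fold change -0.17, 95% interval -0.50 to 0.16). The second receptor gene, plexB, had 16.8 and 20.6 CPM in JIL-1 null and 19.1 and 16.6 CPM in wild type (0.08, interval -0.35 to 0.50). By edgeR 17.2% of all genes tested were called lower and 13.5% higher. Of 7 genes of semaphorins and their partners, all 3 tools called 1 lower and 0 higher, with 0 more at an unadjusted p under 0.05. It was Mical, which encodes an actin-oxidising enzyme that binds plexin A, at -0.45 ± 0.10 (adjusted p = 0.0183, and 0.134 and 0.145 without JIL-1 null libraries 1 and 2 in turn).

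Of 4 genes of kinases and adaptors, 2 fell and 0 rose, and the median was -0.76 (0 higher also at an unadjusted p under 0.05, in DESeq2 and in limma-voom). Of all genes tested 17.2% fell, and groups by role are too small to read the difference as a trait of a role. CaMKI, the calcium- and calmodulin-dependent kinase I gene, had 103 and 98.3 CPM in JIL-1 null and 207 and 228 CPM in wild type. Libraries within a genotype lay close together and the genotypes far apart. Its log2 fold change of -1.11 ± 0.11 passed (adjusted p = 0.00122), and the call held under all 11 alternatives. Dyrk3, of the dual-specificity kinases, had 60.1 and 57.0 CPM in JIL-1 null and 95.2 and 108 CPM in wild type, a log2 fold change of -0.79 ± 0.11 (adjusted p = 0.00402). Without JIL-1 null library 2 the value for Dyrk3 was -0.78 (adjusted p = 0.0586). Asator, a tau-tubulin kinase gene, had 8.78 and 6.25 CPM in JIL-1 null and 10.3 and 14.3 CPM in wild type and did not pass (-0.73 ± 0.25, adjusted p = 0.0694), though it did without wild type library 1 (-0.95, adjusted p = 0.0196). The adaptor gene Crk was measured at 49.7 and 48.2 CPM in JIL-1 null and 52.0 and 46.5 CPM in wild type (-0.01, 95% interval -0.26 to 0.24).

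Among 9 transcription factor genes with a row, 6 were tested, of which 3 fell and only ci rose, beside 17.2% lower and 13.5% higher of all genes tested. The gene zfh2, of a zinc finger homeodomain protein, had 3.59 and 3.97 CPM in JIL-1 null and 8.92 and 9.87 CPM in wild type. Its log2 fold change of -1.31 ± 0.19 passed (adjusted p = 0.00534) but did not when JIL-1 null library 2 was left out (-1.41, adjusted p = 0.0540). Annotated exons of zfh2 overlap those of Thd1 (now named Tdg, a DNA glycosylase gene) on the opposite strand, and Thd1 had 55.1 and 56.4 CPM in JIL-1 null and 62.3 and 56.5 CPM in wild type. Mitf, a regulator of lysosome genes, had 60.7 and 53.1 CPM in JIL-1 null and 79.1 and 90.8 CPM in wild type. It gave -0.58 ± 0.12 (adjusted p = 0.0174), and -0.67 and -0.51 without JIL-1 null libraries 1 and 2 in turn (adjusted p = 0.0668 and 0.144).

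Pur-alpha, of a purine-rich element binding protein, had 52.3 and 52.5 CPM in JIL-1 null and 64.0 and 69.7 CPM in wild type, a small fall of -0.35 ± 0.10 (adjusted p = 0.0408). It was lost with upper quartile scaling (-0.22, adjusted p = 0.131), with no filter (adjusted p = 0.0562), with DESeq2 (adjusted p = 0.103), when wild type library 2 was left out (adjusted p = 0.101) and when JIL-1 null library 1 or 2 was (adjusted p = 0.224 and 0.213). The Wnt effector gene pan, which encodes TCF, had 36.8 and 32.9 CPM in JIL-1 null and 28.3 and 32.4 CPM in wild type and did not pass (0.19, 95% interval -0.11 to 0.50). The Pax6 gene toy had 10 and 2 counts in JIL-1 null and 8 and 5 in wild type. Too few counts for a test were found for onecut, NfI and the Pax2 gene sv, each with at most 5 counts in any library.

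The Hedgehog and Wnt pathways, in which ci, pan and lgs act, were set beside these factors. Among all genes tested, edgeR called 17.2% lower and 13.5% higher. Of 9 other Hedgehog genes, 8 were tested, of which 2 fell and 0 rose by edgeR, DESeq2 and limma-voom (2 higher at an unadjusted p under 0.05 in edgeR). Upper quartile scaling called 1 higher. The gene ttv, of an enzyme of heparan sulfate synthesis, fell with a log2 fold change of -1.34 ± 0.13, and slmb, whose product marks Ci for processing by the proteasome, with -1.07 ± 0.13 (adjusted p = 0.00146 for ttv and 0.00241 for slmb). Both calls held under all 11 alternatives. The ligand gene hh had 7 and 4 counts in JIL-1 null and 5 and 2 in wild type and was not tested. The Hedgehog target and receptor gene ptc did not pass (0.99 ± 0.36, adjusted p = 0.0806). Of 12 other Wnt pathway genes, edgeR, DESeq2 and limma-voom each called 0, with a median of 0.05, and upper quartile scaling called 1 higher. An unadjusted p under 0.05 in edgeR was reached by 2, the receptor gene fz and the co-receptor gene arr, at 1.04 ± 0.36 and 0.38 ± 0.14 (adjusted p = 0.0756 and 0.0801).

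Of 4 genes of coactivators and the transcription machinery, 2 fell, beside 17.2% of all genes tested. MED26, a Mediator subunit gene, had 72.2 and 70.3 CPM in JIL-1 null and 111 and 120 CPM in wild type, and bip2 had 53.9 and 55.0 CPM in JIL-1 null and 78.3 and 93.0 CPM in wild type. Both fell without overlap, by 0.70 and 0.65 on the log2 scale (SE 0.10 and 0.12, adjusted p = 0.00491 and 0.0101). Without JIL-1 null libraries 1 and 2 in turn the values were -0.71 and -0.70 for MED26 (adjusted p = 0.0527 and 0.0659) and -0.63 and -0.69 for bip2 (adjusted p = 0.0871 and 0.0867). The Wnt coactivator gene lgs had 44.1 and 44.6 CPM in JIL-1 null and 50.7 and 51.0 CPM in wild type and did not pass (adjusted p = 0.149). The chromatin cofactor gene Hcf had 55.0 and 54.4 CPM in JIL-1 null and 57.6 and 51.0 CPM in wild type (0.01, 95% interval -0.24 to 0.27).

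Of 24 tested genes of other Mediator subunits, none of them a member, edgeR called 2 higher and 0 lower, and the median was 0.06. Among all genes tested, 13.5% were called higher and 17.2% lower. With an unadjusted p under 0.05, 4 of the 24 were higher and 2 were lower. The pair called higher were MED30 and MED28, at 0.73 ± 0.17 and 0.72 ± 0.21 (adjusted p = 0.0246 and 0.0461). DESeq2 called 0 in either direction, limma-voom 1 higher and 0 lower, and upper quartile scaling 3 and 0. Leaving out JIL-1 null library 1, JIL-1 null library 2 or wild type library 2 lost both calls, with adjusted p of 0.103, 0.217 and 0.0616 for MED30 and 0.224, 0.243 and 0.142 for MED28. The difference between MED26 and these genes was not tested.

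None of the 3 RNA silencing and DNA repair genes was called by edgeR, DESeq2 or limma-voom, and 1 had an unadjusted p under 0.05 in edgeR. The gene gw, whose GW182 protein links Argonaute 1 to decay of microRNA targets, had 193 and 190 CPM in JIL-1 null and 225 and 233 CPM in wild type. Its genotypes did not overlap, but the log2 fold change of -0.26 ± 0.10 had an adjusted p of 0.0924. Rad23 had 93.8 and 110 CPM in JIL-1 null and 122 and 119 CPM in wild type, at -0.24 (95% interval -0.52 to 0.04). Of 8 tested genes of the microRNA silencing machinery outside chromosome 4, edgeR, DESeq2 and limma-voom each called 0, and 0 had an unadjusted p under 0.05 in edgeR. Upper quartile scaling called 2 higher.

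The lowest log2 fold change of the 64 chromosome 4 genes tested was that of a transporter gene. CG1732, now named Gat, encodes the GABA transporter, known from glia of the nervous system. It had 0 and 8 counts in JIL-1 null libraries 1 and 2, against 140 and 324 counts in wild-type libraries. In CPM that is 0 and 0.676 in JIL-1 null and 21.9 and 41.0 in wild type. Both wild-type libraries were far above both JIL-1 null libraries, and wild type library 2 stood above library 1. A count of 0 in JIL-1 null library 1 allows up to 3 counts, or 0.371 CPM. The pooled wild-type counts were 80.9-fold higher than those of JIL-1 null (95% exact interval 40.7 to 188, counting error only). The fitted log2 fold change was -6.27 ± 0.67 (adjusted p = 0.00180) and the call held under all 11 alternatives, with adjusted p from 0.000109 to 0.0223. The size is less certain: it ran from -10.89 without JIL-1 null library 2, when the remaining JIL-1 null library has 0 counts, to -5.51 without JIL-1 null library 1.

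CG1909, for which no role is given here, also had its lowest counts in JIL-1 null and its highest in wild type library 2. It had 12 and 11 counts in JIL-1 null and 38 and 89 in wild type, a log2 fold change of -2.87 ± 0.43 (adjusted p = 0.00558). Leaving out JIL-1 null library 2 gave -2.56 (adjusted p = 0.0614), and leaving out wild type library 2 gave -2.32 (adjusted p = 0.0204). CG9935, now named Ekar, a gene of a glutamate receptor of the kainate type, had 4 and 3 counts in JIL-1 null and 8 and 13 in wild type. It did not pass (-1.99 ± 0.68, adjusted p = 0.0724).

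Wild type library 2 also held more transcripts of midgut digestive enzymes. The 9 midgut markers summed to 19.5 and 19.7 CPM in JIL-1 null and to 101 and 465 CPM in wild-type libraries 1 and 2. Mal-A6 and LysP were alike in both wild-type libraries, at 59.8 and 66.1 CPM and at 34.3 and 34.1 CPM. The excess of library 2 lay in other markers, such as betaTry (0.783 and 72.8 CPM in libraries 1 and 2) and LysB (0.157 and 79.5 CPM). The 9 neuron and glia markers with a row summed to 39.9 and 32.3 CPM in JIL-1 null and 56.0 and 75.6 CPM in wild type. Of those, 5 had too few counts to test, among them repo, the defining gene of glia. It had 3 and 4 counts in JIL-1 null and 0 counts in both wild-type libraries. Of the 4 tested, edgeR called 1 lower and 0 higher, beside 17.2% lower and 13.5% higher of all genes tested. The gene that fell, Syt1, had 21.76 and 21.54 CPM in JIL-1 null and 43.05 and 60.76 CPM in wild type. Its log2 fold change was -1.27 ± 0.18 (adjusted p = 0.00425). Without wild type library 2 the log2 fold change of CG1732 was -5.75 (adjusted p = 0.00226). The part of midgut and nervous tissue in the levels of CG1732 and CG1909 was not tested.

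Other transport genes changed less. CG32000, now named anne, which encodes a P-type ATPase, had 76.0 and 82.3 CPM in JIL-1 null and 104 and 124 CPM in wild type, a log2 fold change of -0.52 ± 0.12 (adjusted p = 0.0234). Without JIL-1 null libraries 1 and 2 in turn it was -0.46 and -0.61 (adjusted p = 0.166 and 0.114). The zinc transporter family gene CG2177 had 94.9 and 89.1 CPM in JIL-1 null and 102 and 126 CPM in wild type and did not pass (-0.31 ± 0.13, adjusted p = 0.116), though it did without wild type library 1 (-0.46, adjusted p = 0.0171). The calcium pump gene PMCA had 183 and 178 CPM in JIL-1 null and 194 and 180 CPM in wild type (-0.05, 95% interval -0.30 to 0.20).

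Rfabg had the most counts of all members, with 8209 and 14821 in JIL-1 null and 9421 and 11752 in wild type. Scaled to library size these were 1015 and 1252 CPM in JIL-1 null and 1475 and 1488 CPM in wild type. The genotypes did not overlap, but the 2 JIL-1 null libraries differed from each other and the log2 fold change of -0.39 ± 0.14 did not pass (adjusted p = 0.0836); DESeq2 called it (-0.41, adjusted p = 0.0252). Of 6 fat body markers 3 fell and 1 rose (Lsp1gamma), beside 17.2% lower and 13.5% higher of all genes tested. The 6 markers summed to 38290 and 38270 CPM in JIL-1 null and 56920 and 67710 CPM in wild type. The part of fat body transcripts in the Rfabg level was not tested.

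The calsyntenin gene cals, of a membrane protein of the cadherin superfamily, had 103 and 115 CPM in JIL-1 null and 142 and 143 CPM in wild type, a small fall of -0.38 ± 0.11 (adjusted p = 0.0402). The call was lost with upper quartile scaling (-0.25, adjusted p = 0.121), with no filter (adjusted p = 0.0570), when wild type library 2 was left out (adjusted p = 0.0630) and when JIL-1 null libraries 1 and 2 were in turn (-0.29 and -0.49, adjusted p = 0.294 and 0.127). The vesicle priming gene Caps had 34 and 52 counts in JIL-1 null and 21 and 38 in wild type and did not pass.

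Neither of the 2 tested cytoskeletal genes was called by edgeR, DESeq2 or limma-voom, and 0 had an unadjusted p under 0.05. Ank, an ankyrin gene, had 228 and 213 CPM in JIL-1 null and 226 and 248 CPM in wild type (-0.11, 95% interval -0.37 to 0.16). The gene bt, which encodes the giant muscle protein projectin, had 25.6 and 22.0 CPM in JIL-1 null and 18.9 and 19.9 CPM in wild type and did not pass (0.29 ± 0.15, adjusted p = 0.183). The 10 muscle markers summed to 343 and 297 CPM in JIL-1 null and 338 and 282 CPM in wild type. Of these markers 7 had a log2 fold change below 0. EdgeR called 2 lower and 1 higher, beside 17.2% lower and 13.5% higher of all genes tested. The kinesin gene Kif3C had at most 3 counts in a library and was not tested.

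The last members that fell were CG33521 and CG32850. CG33521 had 5.69 and 6.34 CPM in JIL-1 null and 10.5 and 10.9 CPM in wild type, a log2 fold change of -0.82 ± 0.17 (adjusted p = 0.0157). Its call was lost with DESeq2 (adjusted p = 0.0829) and when JIL-1 null libraries 1 and 2 were left out in turn (-0.75 and -0.93, adjusted p = 0.115 and 0.0916). CG32850, now named Rnf11, of a RING finger protein, had 13.7 and 13.2 CPM in JIL-1 null and 18.8 and 21.1 CPM in wild type. The log2 fold change was -0.57 ± 0.15 (adjusted p = 0.0358), a call that 7 of 11 alternatives lost, with adjusted p up to 0.193 (without JIL-1 null library 2). Among these 7 it was lost when wild type library 2 (-0.48, adjusted p = 0.0794) or JIL-1 null library 1 (-0.59, adjusted p = 0.149) was left out. The members Slip1, CG1970, yellow-h, CG31999, CG11360 and CG1674 did not pass; CG1970 had 84.1 and 86.5 CPM in JIL-1 null and 82.7 and 86.3 CPM in wild type (0.01, 95% interval -0.22 to 0.25). Exons of CG33521, CG32850, cals, bip2, Asator and Rfabg also overlap other annotated genes on the opposite strand.

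**Figure D3:**
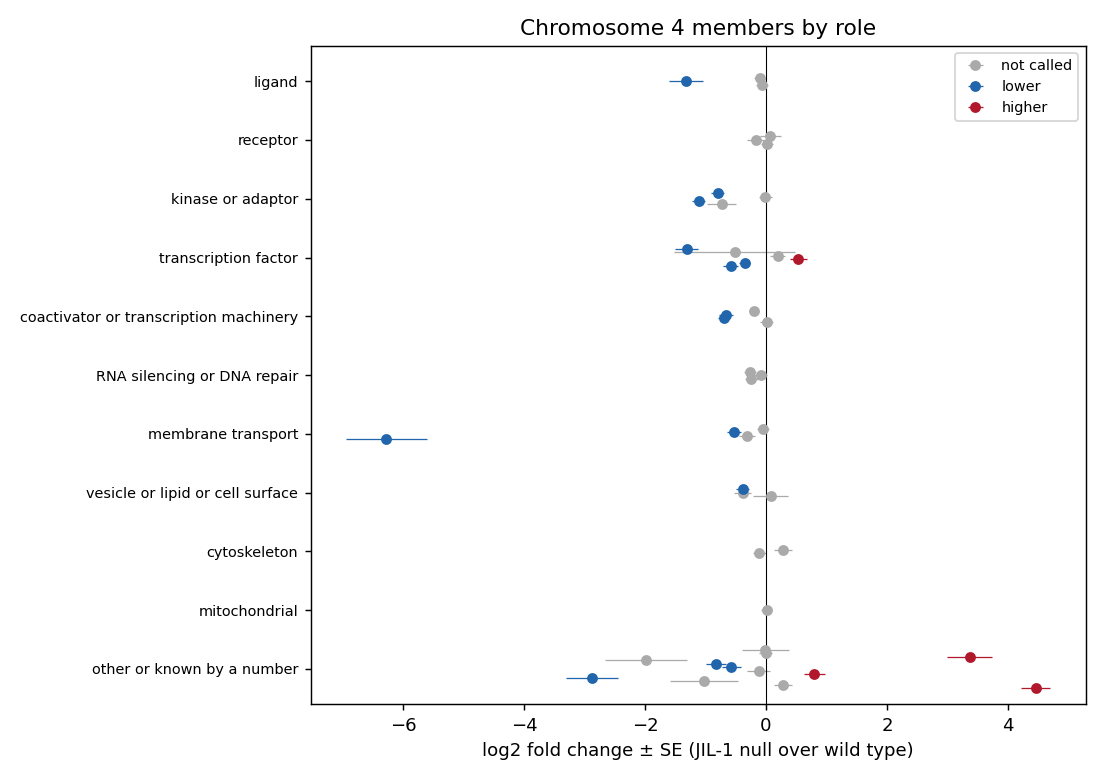
Log2 fold change of JIL-1 null over wild type with its standard error (x axis) for the 45 tested members, 1 point each, grouped by role (y axis) and coloured by call. The 3 receptor genes lie near 0, and 3 transcription factor genes and 2 genes each of kinases, coactivators and membrane transport are called lower. Of all genes tested 17.2% are called lower.

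Order along the chromosome was taken from the annotation, which is of another build than the deposited counts, so it serves only to say which genes are neighbours. Among 64 tested chromosome 4 genes, 11 of 63 neighbouring pairs were called in the same direction, 10 of them lower and 1 higher. With 35.9% of the 64 genes called lower, neighbours called lower can occur in a shuffled order too, so these pairs are a description only. Pairs were formed over tested genes, so untested genes between them were skipped. The pair called higher was ci and CR43957, which overlap. Pairs of members called lower were CaMKI with bip2, mav with CG1732 and Mitf with Dyrk3. CG9935, which did not pass, is the next gene after CG1732. Of the 4 genes called higher, ci, CR43957 and CG31997 were numbers 3, 4 and 10 in annotated order and CG11093 was number 56 of 78.

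**Figure D4:**
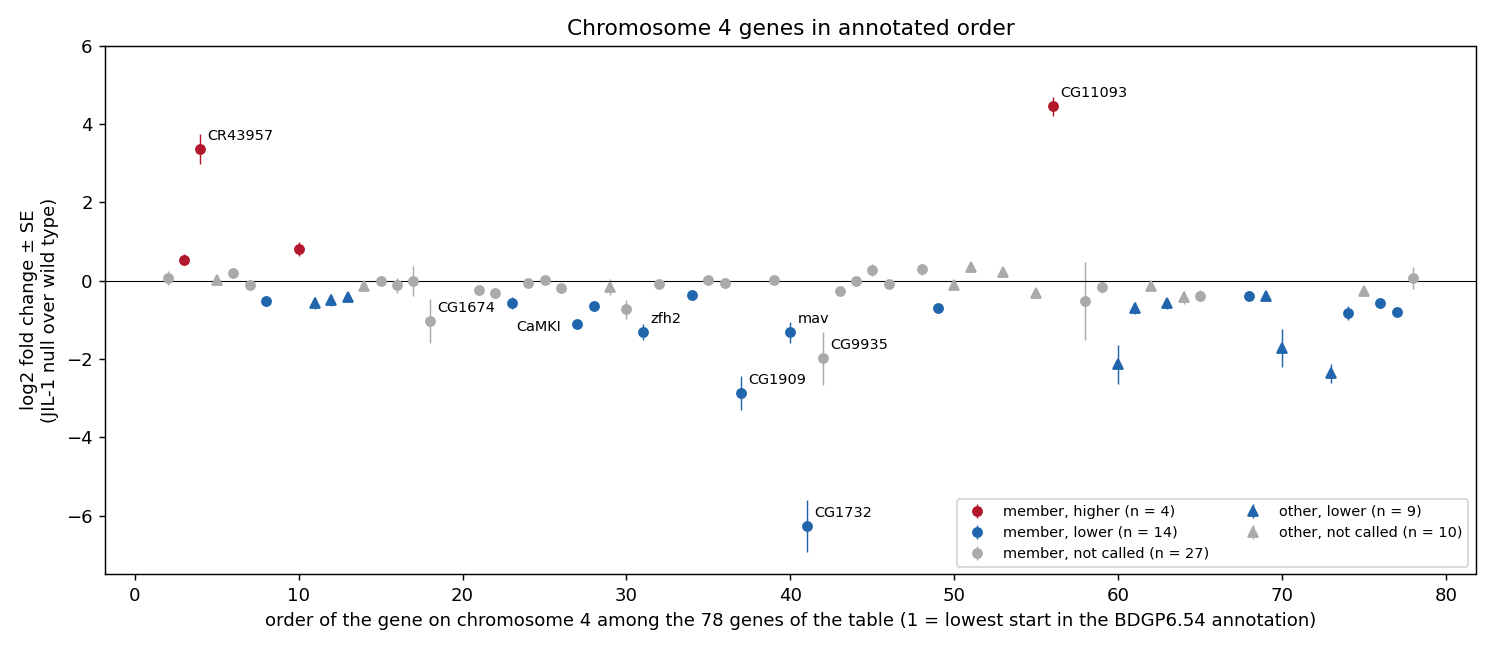
Log2 fold change of JIL-1 null over wild type with its standard error (y axis) for the 64 tested chromosome 4 genes in annotated order among the 78 in the table (x axis, a rank and not a distance). Circles are the 45 members and triangles the 19 other genes; called genes are red (higher) or blue (lower).

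Proteins that act on chromosome 4 chromatin, encoded elsewhere, were measured beside its genes. Of 11 listed genes, all tested, 1 rose and 2 fell by edgeR, beside 13.5% higher and 17.2% lower of all genes tested. The list had a median of 0.19 against 0.03 for all genes. DESeq2 called 0 higher and 0 lower (0 and 2 at an unadjusted p under 0.05), and limma-voom 0 and 2. Pof, whose product binds this chromosome, had 91 and 111 counts in JIL-1 null and 43 and 53 counts in wild type, a log2 fold change of 0.61 ± 0.18 (adjusted p = 0.0480). Of 11 alternatives 2 kept that call, and leaving out any 1 library lost it (adjusted p between 0.0712 and 0.260). The heterochromatin gene Su(var)3-7 fell (-0.49 ± 0.11, adjusted p = 0.0239), as did wde, which encodes a partner of the methyltransferase Eggless (-0.51 ± 0.14, adjusted p = 0.0356). Without JIL-1 null libraries 1 and 2 in turn the adjusted p was 0.154 and 0.185 for Su(var)3-7 and 0.188 and 0.200 for wde, and without wild type library 2 it was 0.0631 for Su(var)3-7. Of 11 alternatives 7 kept the call of Su(var)3-7 and 5 that of wde, which was also lost with upper quartile scaling (adjusted p = 0.0822), no filter (0.0524), the replicate block (0.0586) and DESeq2 (0.111). Without wild type library 1 its adjusted p was below 0.05 but rounds to it. The gene of Eggless, egg, and that of heterochromatin protein 1 did not pass, at 0.34 ± 0.17 and 0.19 ± 0.10 (adjusted p = 0.181 and 0.201).

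The authors' deposited table gives a fold and a false discovery rate of its own. At a false discovery rate under 0.05 it holds 13 of the 50 members lower and 6 higher in JIL-1 null. Among all its 9931 genes it holds 1501 lower and 2241 higher. In the authors' deposited table the fold of CG11093 was 24.3, that of CaMKI was 0.501 and that of CG1732 was 0.0128. Members called there but not by edgeR were bt and CG11360, higher, and CG9935, lower. Pur-alpha and cals, called lower by edgeR, had a false discovery rate of 0.0575 and 0.0506 in the authors' deposited table and were not called there. The authors' folds were 1.33 for bt and 1.31 for CG11360, against 1.22 and 1.21 by edgeR. For Pur-alpha and cals they were 0.85 and 0.83, against 0.78 and 0.77 by edgeR. The part of scaling in these differing calls was not tested. Arc-p34, which encodes a subunit of the actin-nucleating Arp2/3 complex and lies on 2L in the annotation, had 432 and 761 counts in JIL-1 null and 262 and 290 in wild type, a log2 fold change of 0.60 ± 0.13 (adjusted p = 0.0181). That call was lost when JIL-1 null library 2 (0.43, adjusted p = 0.195) or wild type library 2 (0.53, adjusted p = 0.0556) was left out.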

How the data were processed

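Per the labels' protocols, the RNA is total RNA of dissected salivary glands, extracted by kit, and library preparation went by the instructions of Illumina. The submitters' processing notes name GSNAP as a tool and BDGP5 and dm3 as builds. The counter, the gene models, strand use and filters are not given in these sources. Per the file headers, the deposited table holds a raw count for each gene and library, 1 RPKM value for each genotype, and the authors' own fold (a ratio), p-value and false discovery rate, which are used to describe that table only. How RPKM values were pooled is not stated.

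Counts were tested with edgeR 4.0.16 (R 4.3.3) by the two-sided quasi-likelihood test with TMM factors (0.931 to 1.04), after filterByExpr (minimum count 10, minimum total 15, smaller group of 2), which kept 7958 of 9931 genes. P-values were adjusted over these genes by Benjamini-Hochberg and called at 0.05. The biological coefficient of variation was 14.9%. Standard errors come from the F statistic, and fitted fold changes use a prior count of 0.125. A limit of 3 counts per library is between 0.253 and 0.470 CPM. On simulated counts for this comparison over 7958 genes, 68% of genes changed 2-fold and 99% of those changed 4-fold were recovered, 0 in the wrong direction, with 5 unchanged genes called. The simulation changed 200 genes, none of them with a low expected count, and gave every gene the same dispersion. Its rates therefore do not cover members with few counts or a wider spread.

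The annotation (BDGP6.54) matched 9523 identifiers and not 408, and gave chromosomes, newer symbols, neighbours and exon overlaps within that build. None of its coordinates are printed. Alternatives were other scalings and filters, DESeq2 1.42.0, limma-voom (limma 3.58.1), leaving out each library and a replicate block. The members and lists were chosen with earlier results of these data known. The naming rule was JIL-1, any member (with values in every library for called members of at least 5 CPM, the 5 most abundant per length, ligands, receptors and transcription factors), and up to 2 higher and 2 lower called genes per pathway list; others complete small counts or were chosen after their values were seen.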

Additional observations from a re-analysis of the deposited data

How the results depend on the processing

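Of the 18 called members, CG11093, CR43957, CaMKI and CG1732 kept their call under every alternative that gave them a value, and none of the 18 changed direction. The minimum mean of 5 CPM left CR43957 and CG1909 without a test (means of 3.66 and 4.91 CPM). No called member that was tested lost its call under it. All 18 stayed called with RLE size factors, with limma-voom and without wild type replicate 1; 16 did with a minimum mean of 5 CPM, 15 with upper quartile scaling or no filter, 14 with DESeq2, 13 without wild type replicate 2, 9 without JIL-1 null replicate 1 and 4 without JIL-1 null replicate 2. Leaving out a library gave 2 to 16 members called lower and 2 to 4 called higher, 524 to 1612 genes lower and 195 to 1186 higher over all genes, and 1 to 11 other chromosome 4 genes lower and 0 to 1 higher. Over all genes, upper quartile scaling gave 1690 higher calls and DESeq2 gave 587. For the other chromosome 4 genes upper quartile scaling gave 1 higher and 5 lower, DESeq2 5 lower and the 5 CPM minimum 1 higher (unc-13). The members' median was -0.061 with upper quartile scaling and -0.156 with no filter, and ran from -0.229 to -0.148 with a library left out. JIL-1 ran from -0.749 to -0.472 on the log2 scale with a library left out.

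Members that did not pass the test and lay near 0 changed sign under some settings. With upper quartile scaling the log2 fold changes were 0.029 for Ank, 0.014 for CG31999, 0.127 for Crk, 0.075 for Ephrin, 0.084 for PMCA, 0.135 for Slip1, 0.046 for Thd1, 0.039 for myo and 0.13 for yellow-h. RLE size factors and DESeq2 each gave -0.014 for CG1970, -0.012 for Eph and -0.016 for Hcf. With no filter they were 0.020 for Crk, 0.027 for Slip1 and 0.017 for yellow-h, and with the 5 CPM minimum 0.001 for Crk and 0.007 for Slip1. With a library left out the values ran from -0.032 to 0.045 for CG1970, -0.300 to 0.013 for CG31999, -0.164 to 0.386 for Caps, -0.089 to 0.070 for Crk, -0.042 to 0.068 for Eph, -0.132 to 0.004 for Ephrin, -0.075 to 0.097 for Hcf, -0.108 to 0.003 for PMCA, -0.097 to 0.102 for Slip1, -0.332 to 0.004 for plexA, -0.109 to 0.218 for plexB, -2.356 to 0.383 for toy and -0.161 to 0.140 for yellow-h.

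The replicate block changed the sign of no member. It left 3 members called higher and 11 lower (ci, Pur-alpha, cals and CG32850 were lost), and 5 other chromosome 4 genes lower. Same-numbered libraries share only a number: their deviations correlated at -0.0543 over genes. Counting Arc-p34 as a member, an alternative chosen after seeing the data, gave 5 higher, 14 lower and a median of -0.184. Depth limits the 5 untested members, each with at most 6 counts in any library, and calls with 1 library in a genotype assume that it varies like the other. The cause of these differences was not tested.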
